A study of Mus musculus with 8 samples.

Results

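The 9 genes described here encode the enzymes that make serine from a glycolytic intermediate and those that pass its carbon through the folate cycle: Phgdh, Psat1, Psph, Shmt1, Shmt2, Mthfd1, Mthfd1l, Mthfd2 and Aldh1l2. They were chosen by pathway, from among 18193 genes measured on the arrays. Each gene was read by its brightest probe set, the set of short probes that reports 1 transcript, among those with a single gene symbol. The cells were primary mesenchyme of the mouse embryonic palate (strain C57BL/6J), taken at embryonic day 13.5 and grown in standard medium for 2 passages. The mutant group (4 arrays) carried Tgfbr2 fl/fl with Wnt1-Cre, a transgene active in neural crest that deletes the floxed part of the TGF-beta type II receptor gene there and in the cells descended from it. The control group (4 arrays) carried the same Tgfbr2 fl/fl alleles without Cre, by the genotype label and the design text, so both groups are floxed, although the sample titles call the controls wildtype. Cells in the culture that do not descend from neural crest keep the receptor in both groups. The study was set up to ask how faulty TGF-beta signalling disturbs the metabolism of these cells. The labels do not say whether each array came from its own embryo, so a p-value here reflects how far these arrays scatter, for technical or other reasons, and 4 arrays per group limit the precision throughout.

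Serine is made in the cytosol in 3 steps. Phgdh oxidises 3-phosphoglycerate taken from glycolysis, Psat1 adds the amino group, and Psph removes the phosphate. Serine hydroxymethyltransferase then moves a carbon from serine to tetrahydrofolate, leaving glycine, and it exists as a cytosolic enzyme (Shmt1) and a mitochondrial enzyme (Shmt2). In mitochondria Mthfd2 oxidises the folate-bound carbon, Mthfd1l releases it as formate for export, and Aldh1l2 can instead burn it to carbon dioxide while making NADPH. In the cytosol Mthfd1 reloads formate onto folate for the synthesis of purines and thymidylate, which dividing embryonic cells need. The transcription factor ATF4 is known to induce most of these genes when amino acids are short, and TGF-beta is known to raise the serine synthesis genes in lung fibroblasts.

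The start regions of the genes are shown because 8 of the 9 genes were lower in mutant cells at an unadjusted p under 0.05 in limma. Of the 9 genes, 8 matched a RefSeq start in the mouse build GRCm38.p6, and Aldh1l2 had no entry. The 150 bases before the start are printed 5′ to 3′ along the gene for the serine synthesis enzymes, for Shmt2 and Mthfd2 as mitochondrial enzymes, and for Shmt1, the gene with the smallest difference. Capitals mark the CCAAT box, bound by the factor NF-Y, or the same letters on the other strand (ATTGG).
Phgdh, chr3:98339970-98340119, minus strand: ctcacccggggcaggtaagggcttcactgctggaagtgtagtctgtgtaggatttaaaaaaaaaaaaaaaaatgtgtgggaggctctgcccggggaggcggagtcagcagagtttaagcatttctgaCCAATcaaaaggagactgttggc
Psat1, chr19:15925060-15925209, minus strand: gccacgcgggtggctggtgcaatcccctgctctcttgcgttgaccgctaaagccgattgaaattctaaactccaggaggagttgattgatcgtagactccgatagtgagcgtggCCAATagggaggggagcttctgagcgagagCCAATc
Psph, chr5:129787254-129787403, minus strand: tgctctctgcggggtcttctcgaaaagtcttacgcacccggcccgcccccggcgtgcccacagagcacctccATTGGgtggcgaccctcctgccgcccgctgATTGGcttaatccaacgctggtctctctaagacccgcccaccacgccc
Shmt2, chr10:127522445-127522594, minus strand: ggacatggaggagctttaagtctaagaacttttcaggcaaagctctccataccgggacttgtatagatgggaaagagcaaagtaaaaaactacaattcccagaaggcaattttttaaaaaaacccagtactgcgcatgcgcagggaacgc
Mthfd2, chr6:83317605-83317754, minus strand: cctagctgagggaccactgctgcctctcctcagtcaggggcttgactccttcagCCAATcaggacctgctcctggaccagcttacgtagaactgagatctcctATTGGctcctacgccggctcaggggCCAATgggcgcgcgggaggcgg
Shmt1, chr11:60811266-60811415, minus strand: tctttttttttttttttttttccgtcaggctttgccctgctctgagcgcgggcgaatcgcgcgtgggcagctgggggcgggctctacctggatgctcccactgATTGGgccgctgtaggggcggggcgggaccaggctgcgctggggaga
The CCAAT box stood in this window in 6 of the 8 genes, at Phgdh, Psat1, Psph, Shmt1, Mthfd1 and Mthfd2, and in 24.5% of all 32851 RefSeq start windows of 150 bases. Mthfd2 had 3 copies, whose first bases lay 96, 47 and 22 bases before the start. Shmt1 carried the box as well, and Shmt2 and Mthfd1l did not. The letters TGATGNAA, the core of the element through which ATF4 and C/EBP factors bind, stood on neither strand of the 150 bases in any of the 8 genes, against 2.23% of all windows. In the whole 300 bases around the start the count was again 0 of 8, against 3.97%. The MYC E-box CACGTG was likewise found in 0 of 8 genes (4.30% of windows of 150 bases), and the GC box GGGCGG in 5 of 8 (28.6%). Psat1 is among these 5 only through a second RefSeq start, not printed, which held a GC box and no CCAAT box. Its printed window held no GC box. Counted by window, as the shares over all windows are, the 8 genes had 9 windows, of which 6 held the CCAAT box and 5 the GC box. These matches describe letters in these windows and say nothing of binding elsewhere.

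No member passed the test between genotypes, but 8 of the 9 lay on the low side. All 9 differences were negative, with a median of -0.63 on the log2 scale, against -0.00778 over all genes. That of Shmt1, at -0.00841, was about the same as the median over all genes. The test was limma's moderated linear model with Benjamini-Hochberg adjustment over the 18193 genes and a threshold of 0.05, at which 16 genes (0.0879%) were called, 12 lower and 4 higher in mutants (11 of 12 lower with array medians centred). The smallest adjusted p of a member was 0.177 (Psph, limma). At an unadjusted p under 0.05 in limma, 8 of the 9 members were lower in mutants, all but Shmt1, where 9.69% of all genes were lower and 5.84% higher. In 6 of the 9 every mutant array lay below every control array, which held for 5.18% of all genes. The 9 genes were proposed with results of these data known, so these counts describe them and are not a test of the list.

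**Figure D1:**
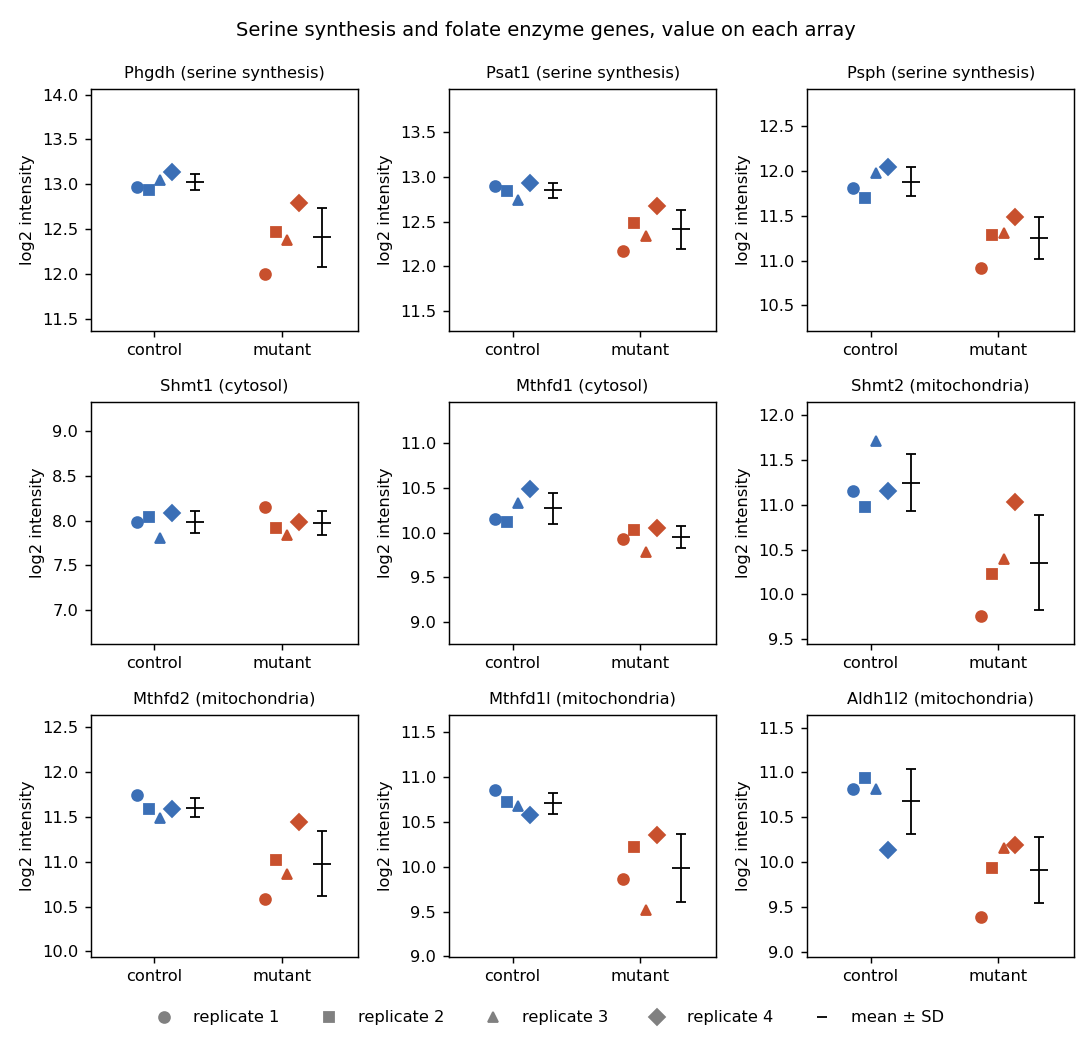
Log2 intensity (vertical axis, the same span in every panel) of each gene on the 4 control (blue) and 4 mutant (orange) arrays, with symbols for replicate numbers and black bars for the mean ± SD (n = 4). Mutant arrays lay below all control arrays for Phgdh, Psat1, Psph, Mthfd1, Mthfd2 and Mthfd1l, overlapped by 1 array for Shmt2 and Aldh1l2, and were intermixed with controls for Shmt1.

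Mesenchyme genes were bright on every array, and so were macrophage genes. Of 14 palatal mesenchyme markers 11 lay above the median gene on all 8 arrays, whereas the transcription factor genes Dlx5, Osr2 (6.74 in mutants and 6.53 in controls) and Tbx22 (4.91 in controls, a difference of -0.02) lay below it. The list leaned low in mutants, with 10 of 14 differences negative, a median of -0.12, 3 lower and 0 higher at an unadjusted p under 0.05, and 0 called in limma. Dlx5 read 6.54, 6.87, 7.09 and 6.48 in mutants and 8.13, 7.82, 7.80 and 7.76 in controls, with no overlap and a difference of -1.13 (SE 0.15, adjusted p = 0.0607 in limma). The collagen genes Col3a1 and Col1a1 differed by -0.38 (SE 0.12) and -0.37 (SE 0.15). The part of these markers in the members' differences was not tested. Of 20 macrophage and leukocyte markers 19 lay above the median gene on all arrays, and their mean log2 intensity ran from 11.12 to 13.26 in mutants and from 11.09 to 12.65 in controls. All 20 were higher in the mutant mean (median difference 0.83), with 0 called in limma and 5 whose unadjusted p was under 0.05. The mean was 13.25, 13.26 and 13.25 in mutants 1 to 3 and 11.12 in mutant 4, and it was 12.43, 12.65, 11.21 and 11.09 in controls 1 to 4. Epithelial markers (1 of 10) and endothelial markers (0 of 8) were seldom above the median gene on all arrays. Among the epithelial markers 2 were higher in mutants at an unadjusted p under 0.05 and 0 were called in limma, Cdh1 with a difference of 1.47 (SE 0.55) and Krt14 with 0.22 (SE 0.09). Cdh1 read 6.76, 7.44, 6.96 and 5.20 in mutants and 6.14, 5.46, 4.57 and 4.30 in controls, lowest on the 3 arrays that were lowest in macrophage markers. Its part in the members' differences was not tested. The bioB hybridisation controls divided the arrays into replicates 1 and 2 (6.34 to 6.52) and replicates 3 and 4 (8.24 to 8.79) of both genotypes, here called the first and second hybridisation batch. By the spiked poly-A transcripts that track labelling, 3 arrays were low (mutant 3, mutant 4 and control 3, at 6.77 to 7.56) and 5 were high (8.53 to 9.21), a grouping here called the labelling batch. Both groupings were read from these control signals, and no label names a batch. The brightest Tgfbr2 probe set read 12.63, 12.76, 12.55 and 11.72 in mutants and 12.40, 12.38, 11.72 and 11.67 in controls (adjusted p = 0.568 in limma, fitted to probe sets). Its place relative to the deleted part was not known here, so it does not check the labels, on which every direction rests.

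The 3 enzymes of serine synthesis were lower to a similar degree. Phgdh, the first step, read 11.99, 12.47, 12.38 and 12.79 in mutants 1 to 4 and 12.97, 12.93, 13.05 and 13.13 in controls 1 to 4. The groups did not overlap, and the mutant arrays were spread over a wider range, from mutant 1 at the bottom to mutant 4 next to the controls. The means were 12.41 ± 0.33 and 13.02 ± 0.09 (SD, n = 4), a difference of -0.61 (SE 0.16), or 65.4% of the control level. Its adjusted p in limma was 0.187.

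Psat1, the aminotransferase of the second step, read 12.17, 12.48, 12.34 and 12.68 in mutants and 12.89, 12.84, 12.74 and 12.93 in controls. Mutant 4, the highest mutant, lay 0.066 below control 3, the lowest control. The difference was -0.43 (SE 0.11), the smallest of the serine synthesis genes, with adjusted p = 0.189 in limma.

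Psph, the phosphatase that releases serine, had the smallest p of the 9 genes and stood at place 150 among all 18193. It read 10.92, 11.29, 11.31 and 11.49 in mutants and 11.81, 11.69, 11.98 and 12.05 in controls. The gap between the groups was 0.21, wider than for Phgdh or Psat1. The means were 11.25 ± 0.24 and 11.88 ± 0.16 (SD, n = 4), a difference of -0.63 (SE 0.14), or 64.6% of the control level.

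The 4 mitochondrial folate enzymes differed by -0.90 to -0.63, and the least negative of them, Mthfd2, was level with Psph. Shmt2, which takes the carbon from serine inside mitochondria, read 9.76, 10.23, 10.39 and 11.03 in mutants and 11.15, 10.98, 11.71 and 11.15 in controls. Mutant 4 lay just above control 2, so the groups overlapped by that array. The means were 10.35 ± 0.53 and 11.25 ± 0.32 (SD, n = 4), a difference of -0.90 (SE 0.27), the largest of the 9 in size. Its 95% interval ran from -1.51 to -0.28, with adjusted p = 0.205 in limma. That rank rests on the brightest probe set. With probe sets averaged Shmt2 differed by -0.605 (SE 0.178), less in size than Aldh1l2 (-0.764), Mthfd1l (-0.72), Psph (-0.63) and Mthfd2 (-0.608).

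Mthfd2, the dehydrogenase and cyclohydrolase that follows Shmt2, read 10.59, 11.02, 10.87 and 11.45 in mutants and 11.75, 11.59, 11.49 and 11.59 in controls. Here too mutant 4 stood next to the controls, 0.046 below the lowest. The difference was -0.63 (SE 0.17), or 64.8% of the control level, with adjusted p = 0.189 in limma.

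Mthfd1l, the synthetase that frees formate, showed the widest gap between the groups, 0.22. It read 9.86, 10.22, 9.52 and 10.36 in mutants and 10.86, 10.72, 10.68 and 10.58 in controls. Mutant 3 was the lowest array here, not mutant 1. The difference was -0.72 (SE 0.18), or 60.7% of the control level, with adjusted p = 0.187 in limma.

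Aldh1l2, which oxidises formyl-folate in mitochondria, read 9.39, 9.93, 10.15 and 10.19 in mutants and 10.82, 10.94, 10.82 and 10.13 in controls. Control 4 stood apart from the other controls and lay below mutants 3 and 4. The difference was -0.76 (SE 0.23), and it was -0.95 without control 4, with neither value past the threshold.

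By their brightest probe sets, the cytosolic pair showed smaller differences. Mthfd1, the trifunctional cytosolic enzyme, read 9.93, 10.02, 9.79 and 10.06 in mutants and 10.15, 10.12, 10.33 and 10.49 in controls. The groups did not overlap but were 0.061 apart at the nearest point. The difference was -0.32 (SE 0.11), or 79.9% of the control level, with adjusted p = 0.232 in limma. The further probe sets of Mthfd1 differed by -0.49 (SE 0.18) and -0.39 (SE 0.20), and with its probe sets averaged it differed by -0.40 (SE 0.10).

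Shmt1 read 8.15, 7.92, 7.83 and 7.98 in mutants and 7.99, 8.04, 7.81 and 8.09 in controls, and the groups were fully intermixed. Its mean over the arrays lay below that of the median gene (8.17), which was true of no other member. The difference was -0.01 (SE 0.10), with a 95% interval from -0.23 to 0.21, and its sign turned under 7 alternatives, quantile normalization among them. On the brightest probe sets, the interval of Shmt1 did not meet that of Shmt2. Nor did it meet those of Mthfd2, Mthfd1l, Aldh1l2, Phgdh and Psph, while it overlapped those of Psat1 and Mthfd1. The interval of Mthfd1 (-0.57 to -0.08) overlapped those of all 4 mitochondrial enzymes. As means over all their probe sets, Shmt1 differed by -0.23 (SE 0.08) and Shmt2 by -0.605 (SE 0.178), values closer to each other. The gap between the Shmt1 and Shmt2 intervals therefore rests on the choice of probe set. A difference between the cytosolic and mitochondrial enzymes was not tested.

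The further probe sets bear on both Shmt1 and Shmt2. The other 3 probe sets of Shmt1 read -0.25, -0.38 and -0.30 (SE 0.13, 0.15 and 0.10). The dimmest of them separated the groups, from 7.04 to 7.19 in mutants and from 7.24 to 7.70 in controls. With the 4 averaged, Shmt1 differed by -0.23 (SE 0.08), and with the most variable of them by -0.38. Both reached an unadjusted p under 0.05 in limma and neither passed after adjustment. With probe sets averaged all 9 members were lower at that unadjusted p, as were 8.69% of all genes. Over all 9 genes 22 probe sets were present, and all 22 differences were negative, with 18 of them with an unadjusted p under 0.05 in limma and 0 called after adjustment. In 12 of the 22 every mutant lay below every control. The shares over all probe sets were not taken, so these counts only describe the 22. Probe sets of 1 gene share a target and are not independent.

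All 4 probe sets of Phgdh, 3 of the 4 of Shmt2 and the dimmest of Mthfd1 (at -0.39) carry the same suffix. That suffix marks probes able to match other transcripts, so a near-identical sequence cannot be told apart from these genes. The probe set of Shmt2 without the suffix differed by -0.64 (SE 0.23), reading 8.32, 8.79, 9.12 and 9.41 in mutants and 9.35, 9.34, 9.77 and 9.74 in controls. Its dimmer probe sets with the suffix differed by -0.30 (SE 0.12) and -0.58 (SE 0.19). The 4 of Phgdh ran from -0.61 to -0.51. In the least negative of them (SE 0.24, unadjusted p = 0.070 in limma) the groups overlapped, with mutant 4 at 12.38 and control 1 at 12.28. The second probe set of Mthfd2 differed by -0.59 (SE 0.12) and that of Psat1 by -0.47 (SE 0.11), both with no overlap between groups.

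**Figure D2:**
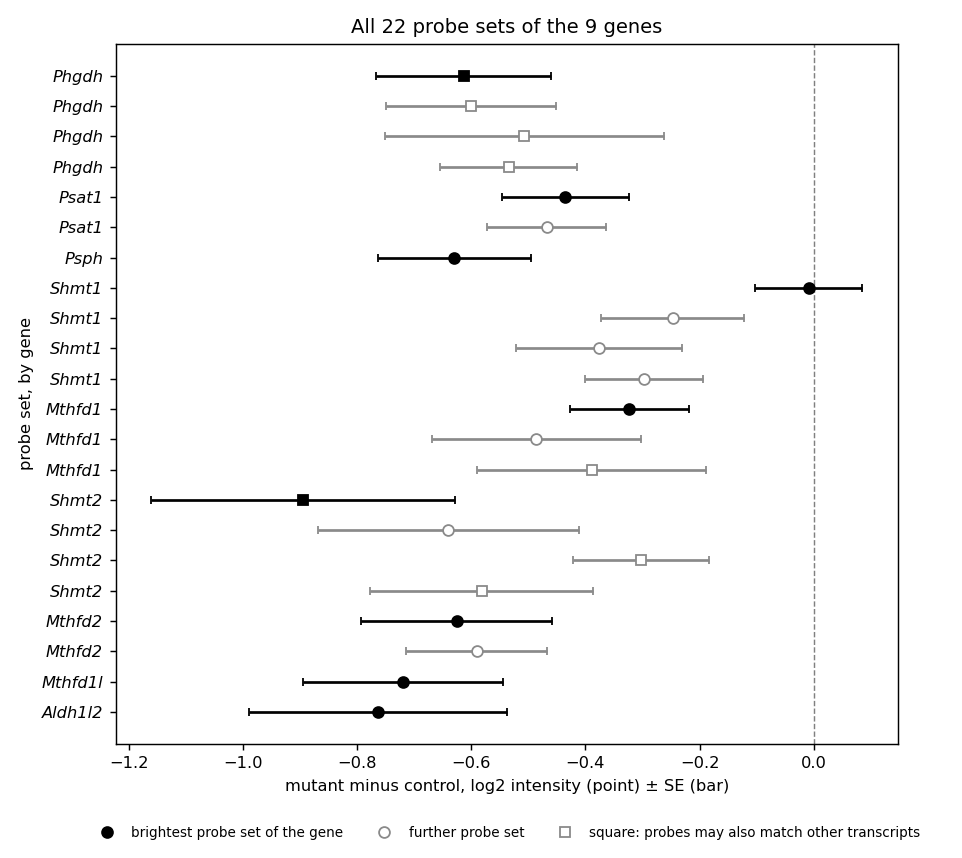
Difference between genotypes in log2 intensity (horizontal axis, points) with its SE (bars, fit over all probe sets) for the 22 probe sets of the 9 genes, brightest first within each gene. Every point lies left of 0, and the brightest Shmt1 probe set, at -0.01, stands to the right of its other 3.

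The order of the arrays within the mutant group recurred from gene to gene. Mutant 1 was the lowest of all 8 arrays for 6 of the 9 genes, and mutant 4 was the highest mutant for 8, Shmt1 being the exception. The shares of all genes with this order were not taken, so it is not shown to be particular to the 9. Over all genes mutant 4 differed from mutants 1 to 3 by a mean absolute 0.37, 0.34 and 0.32. From controls 1 to 4 it differed by 0.30, 0.31, 0.21 and 0.26. Mutant 4 was also the mutant array lowest in macrophage markers. Beside the 2 control arrays with like macrophage levels, controls 3 and 4, mutant 4 lay below both for 7 of the 9 genes, the exceptions being Shmt1 and Aldh1l2. Its difference from their mean was -0.53 for Psph, -0.39 for Shmt2, -0.35 for Mthfd1, -0.30 for Phgdh and -0.10 for Mthfd2. These rest on a single mutant array and carry no test. The share of all genes in which mutant 4 lay below both controls was not taken, so the count only describes the 9. In RNA from a mixed culture, fewer cells of a type and less RNA per cell cannot be told apart.

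With the macrophage mean of each array as a covariate, 8 of the 9 were lower at an unadjusted p under 0.05, as were 9.38% of all genes. In that fit 54 genes passed in limma and none of the 9 did. The median difference of the 9 was then -0.49. Shmt2 moved most, from -0.90 to -0.58 (SE 0.20), while Aldh1l2 read -0.77 (SE 0.26) and Mthfd1l read -0.63 (SE 0.19).

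**Figure D3:**
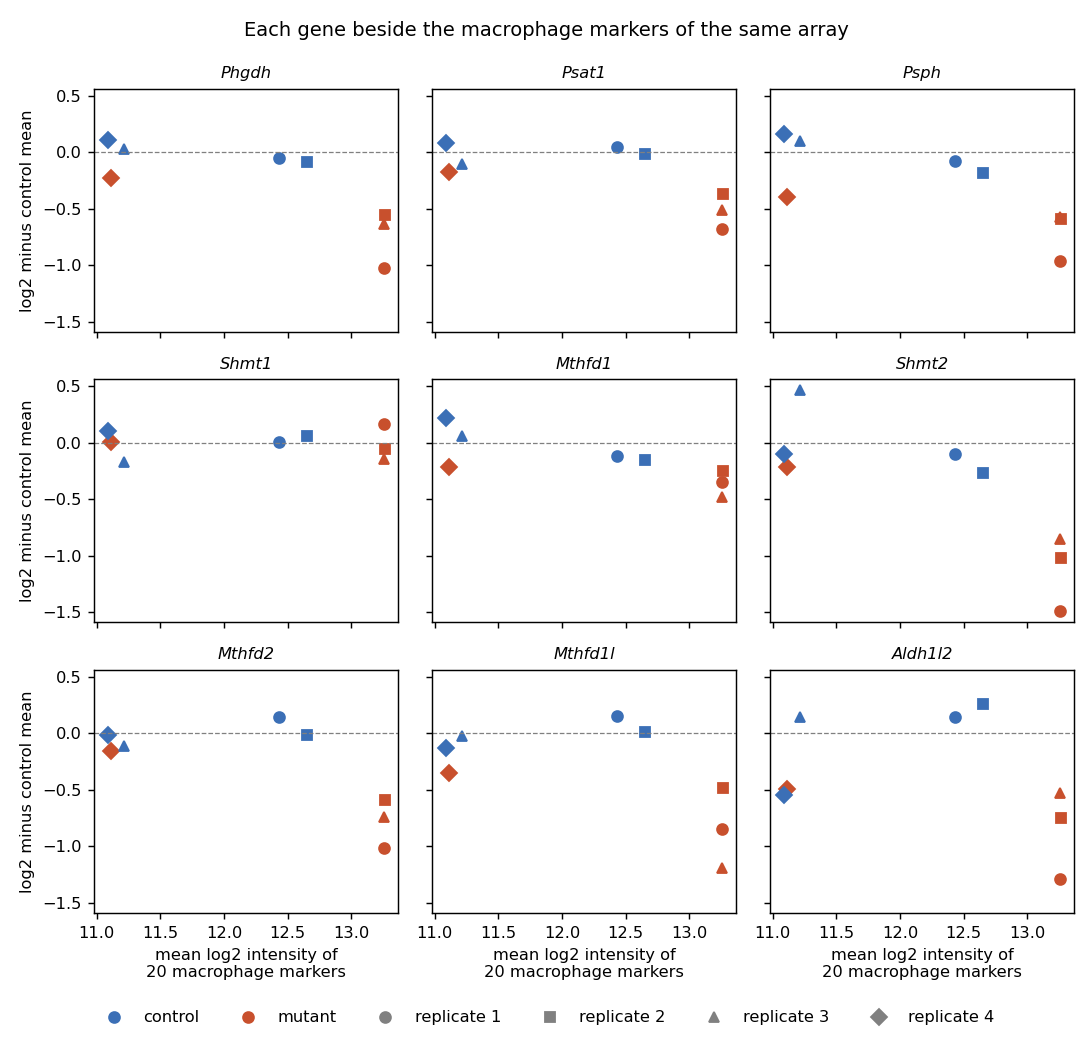
Log2 intensity of each gene minus its control mean (vertical axis) against the mean log2 intensity of 20 macrophage markers on the same array (horizontal axis), for control (blue) and mutant (orange) arrays, with symbols for replicates. Mutants 1 to 3 sit together at 13.25 to 13.26 on the horizontal axis and below 0 on the vertical one for every gene but Shmt1, where mutant 1 is the highest array at 0.17, and mutant 4 sits at 11.12 beside controls 3 and 4, a little below them for most genes.

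Single arrays, array weights and batches moved the calls. With arrays weighted by their quality 7 members passed in limma, among 1470 genes. Without mutant 4, 6 members passed in limma (Phgdh, Psat1, Psph, Shmt2, Mthfd1l and Mthfd2, with adjusted p from 0.0192 to 0.0299), but then 1316 genes passed in all. With any other array left out 0 members passed, among 0 to 31 genes in all. Each time 8 members were lower at an unadjusted p under 0.05, beside 6.15% to 9.65% of all genes. In the first hybridisation batch alone 7 members passed, among 2085 genes, and in the second 0 of 9, among 0 genes (947 genes at an unadjusted p under 0.05, 2 members among them lower). Aldh1l2 differed by -1.22 in the first batch and -0.31 in the second, Mthfd2 by -0.87 and -0.38, and Phgdh by -0.72 and -0.50. Mthfd1 went the other way, with -0.16 and -0.49. Psph (-0.65 and -0.61) and Mthfd1l (-0.75 and -0.70) were nearly equal in both. The second batch held mutant 4 and also control 4, the lowest control for Aldh1l2, so its values lean on single arrays. Its controls were also the lowest in macrophage markers, and a part of the batch itself was not tested.

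**Figure D4:**
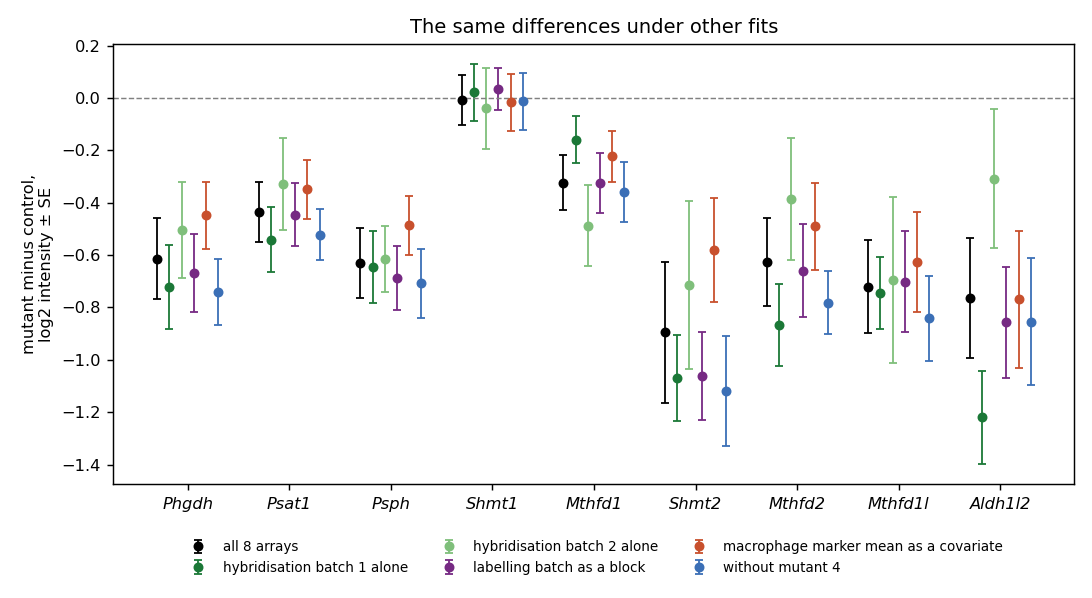
Difference between genotypes in log2 intensity (vertical axis, points) with its SE (bars) for each gene with all 8 arrays, within each hybridisation batch, with the labelling batch (inferred from poly-A controls) as a block, with the macrophage covariate and without mutant 4. All genes but Shmt1 are below 0 in every fit shown, with Aldh1l2 spread most, from -1.22 to -0.31.

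Other genes of folate metabolism had a median difference near that of all genes. Of 17 measured genes that complete the folate cycle or take up folate, 0 passed in limma, 3 were lower and 2 higher at an unadjusted p under 0.05, and the median difference was -0.06. Tyms, the thymidylate synthase that consumes folate-bound carbon, differed by -0.46 (SE 0.14), from 5.71 ± 0.22 in controls to 5.25 ± 0.20 in mutants (SD, n = 4), levels below that of the median gene. Mtfmt, which formylates the mitochondrial initiator tRNA, differed by -0.18 (SE 0.07). Mthfs, which returns 5-formyl-folate to the cycle, differed by 0.93 (SE 0.30). The difference between this list and the 9 genes was not tested.

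Of 12 purine synthesis genes, which use formyl-folate at the steps of Gart and Atic, 0 passed, 4 were lower and 1 higher at an unadjusted p under 0.05, and the median was -0.21. Pfas differed by -0.51 (SE 0.17) and Gart by -0.41 (SE 0.16), while Adssl1, the muscle-type adenylosuccinate synthetase, differed by 1.21 (SE 0.44). Of 10 genes of the methionine cycle and transsulfuration 0 passed, with 2 lower, 2 higher and a median of -0.05. Cth, which makes cysteine from cystathionine, read 9.44 ± 0.39 in mutants and 10.21 ± 0.16 in controls (SD, n = 4), a difference of -0.77 (SE 0.19), and Ahcyl1 differed by -0.32. Gnmt, a glycine methyltransferase that was dim in both groups, differed by 0.31 (SE 0.09).

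Genes around serine itself varied in both directions. Of 18 genes of serine transport and use 0 passed, 2 were lower and 2 higher at an unadjusted p under 0.05, and the median was 0.03. The neutral amino acid transporter gene Slc1a4 differed by -0.68 (SE 0.16) and Sfxn1, which carries serine into mitochondria, by -0.42 (SE 0.15), while Serinc3 differed by 0.44 (SE 0.16). Of 4 measured genes that supply or use 3-phosphoglycerate in glycolysis 0 passed and 0 reached an unadjusted p under 0.05, with Pgam1 at -0.16, Pgk1 at -0.10 and Bpgm at -0.31. Of 3 measured genes of glycine breakdown 0 passed. Gcsh, a carrier protein of the glycine cleavage system, differed by -0.27 (SE 0.12), Gldc by 0.10 and Dld by -0.01.

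Genes that ATF4 is known to induce outside this pathway also lay mostly on the low side. Of 24 measured, with Atf4 itself among them, 0 passed in limma, 13 were lower and 0 higher at an unadjusted p under 0.05, and the median was -0.45. Slc7a3, a cationic amino acid transporter, differed by -1.63 (SE 0.30), Asns, the asparagine synthetase, by -0.72 (SE 0.14) and Ddit4, an inhibitor of mTORC1, by -0.77 (SE 0.18). Atf4 itself, whose protein is controlled mainly in translation, differed by -0.25 (SE 0.17) and did not reach an unadjusted p under 0.05. Of 12 DNA replication genes 0 passed, 5 were lower and 0 higher, with a median of -0.32. Mcm2 differed by -0.53 (SE 0.12), Cdc6 by -0.66 (SE 0.17) and Mcm7 by -0.35 (SE 0.10).

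**Figure D5:**
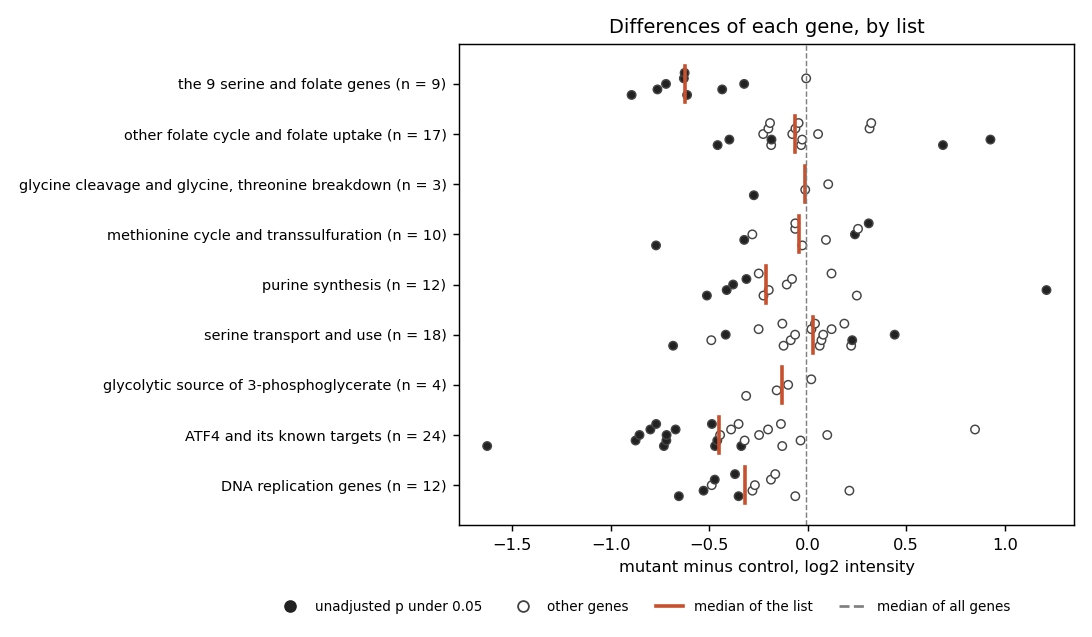
Difference between genotypes in log2 intensity (horizontal axis) for every measured gene of each list, with filled points for an unadjusted p under 0.05, orange bars for list medians and a dashed line for the median of all genes. The 9 serine and folate genes have a median of -0.63, the ATF4 targets -0.45 (22 of 24 negative, with Atf3 at 0.85 and Stc2 at 0.10 to the right) and the DNA replication genes -0.32 (11 of 12 negative), and the other folate, methionine and serine lists straddle the line.

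The genes whose values over the 8 arrays most resembled the mean standardised profile of the 9 were Rflnb, Hs6st2, Tceal9, Adgra3, Eif4ebp1, Plod2, Rbm17 and Txndc15, with Pearson's r from 0.987 to 0.994 among 9088 other genes brighter than the median gene. The 8 arrays share the genotype split, so these values describe likeness and carry no test. Among the 9 themselves, Shmt1 did not follow the profile (r = 0.005). Aldh1l2 had r = 0.776, and the others ran from 0.850 (Mthfd1) to 0.982 (Psat1). Hs6st2, a heparan sulfate sulfotransferase gene, had the same rank order of arrays as the profile (10.57 ± 0.53 in mutants and 12.19 ± 0.14 in controls, SD, n = 4). Eif4ebp1, a translation inhibitor that ATF4 is known to induce, differed by -0.34 (SE 0.08), and Plod2, a collagen lysyl hydroxylase, by -1.56 (SE 0.30). None of the 8 passed in limma, the smallest adjusted p being 0.0870 for Hs6st2.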

How the data were processed

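Biotin-labelled RNA of the 8 cultures was read on Affymetrix mouse arrays, per the labels' protocols. The authors deposited log2 intensities, 1 per probe set and array, made with RMA per the submitters' processing notes, in a version not given in the sources used here. They were used as deposited (array medians 6.90 to 6.96). Of 45101 probe sets, 64 were array controls, 34945 had 1 symbol, 932 several and 9160 none listed. Symbols were updated by Entrez identifier through a RefSeq table (34741 matched). The gene value is the probe set with the highest mean.

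Mutant minus control was fitted across all genes with limma 3.58.1 in R 4.3.3 (lmFit, eBayes, no covariate, two-sided), with Benjamini-Hochberg adjustment. SE values are moderated errors, and intervals are 95%. The fit was tested on simulated data. The members and lists were chosen with earlier results of these data known. The named genes are the 9 members, up to 3 genes per list by smallest p, Tgfbr2, and the 8 genes most like the members' mean z-scored profile. Atf3, Atf4, Stc2, Osr2 and Tbx22 were named after their values were seen. Of 163 genes on 12 further lists 152 were measured. Motifs were searched on both strands of RefSeq windows. Alternatives covered normalization, probe set choice, dim genes, variance model, array weights, the replicate block, batches, a macrophage covariate and leaving out each array. Leaving out probe sets that can match other transcripts was added after seeing the data.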

Additional observations from a re-analysis of the deposited data

Results flagged for a closer look

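Among the 9 genes, with each genotype taken separately (18 groups of 4 arrays), 1 array lay far from the other 3. Aldh1l2 read 10.13 in control 4, while the other controls read 10.82 to 10.94, and the gap was 0.851 of the whole range of the group. Chance flags about 1 in 20 groups. Without control 4 the difference of Aldh1l2 was -0.95, against -0.76 with it.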

How the results depend on the processing

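Of the 9 genes, 8 kept a negative difference in every alternative in which they were measured. Shmt1 read -0.376 with the most variable probe set and -0.232 with probe sets averaged, but its sign turned elsewhere, at 0.0167 with quantile normalization, 0.0221 in the first hybridisation batch, 0.0341 when the labelling batch, inferred from poly-A controls, was blocked, and from -0.0671 to 0.0376 with 1 array left out (0.00833, 0.0376, 0.0111 and 0.0271 without mutant 2, mutant 3, control 2 and control 4). Members past the threshold in limma were 7 with array weights, 7 in the first hybridisation batch and 0 to 6 with 1 array left out, and 0 under the other alternatives. Members lower at an unadjusted p under 0.05 were 2 in the second hybridisation batch alone, where 3.52% of all genes were. Genes past the threshold over all genes, 16 with the settings reported above, were 3 with the most variable probe set, 0 with dim genes left out (1823 at an unadjusted p under 0.05), 1470 with array weights, 2085 and 0 in the first and second hybridisation batch, 2 when the labelling batch was blocked, 54 with the macrophage covariate, 8 without probe sets that can match other transcripts, and 0 to 1316 with 1 array left out. With the replicate number as a block 0 genes passed in limma and 3828 had an unadjusted p under 0.05. The members' differences were the same, with 8 of 9 lower at an unadjusted p under 0.05, beside 12.5% of all genes. The deviations of same-numbered arrays from their group means correlated at 0.473, 0.416, -0.092 and 0.371 over genes, and mutant 1 correlated best with control 2 (0.510), so the numbers were not taken to pair the samples. The median difference of the 9 genes ran from -0.74 without mutant 4 to -0.49 in other alternatives. Signal limits Shmt1, which was dim, and Phgdh could not be read without probe sets that can match other transcripts.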
